A study of Mus musculus with 4 samples.

Results

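The genes described here encode 10 secreted components of the extracellular matrix: osteopontin (Spp1), tenascin-C (Tnc), periostin (Postn), SPARC (Sparc), the thrombospondins Thbs1 and Thbs2, fibronectin (Fn1) and the small leucine-rich proteoglycans decorin (Dcn), biglycan (Bgn) and lumican (Lum). They were chosen by name, with earlier results of these data known. Every array probe whose transcript accession belongs to one of these symbols was kept, which gave 12 of the 39429 probes on the array. There were 2 each for Tnc and Sparc and 1 for each of the other genes. All 12 probes were well above background in both channels on all 4 arrays, none was saturated, and all passed the filter on dim probes that left 28933 probes to test. RNA of both groups came from C2C12, an established line of mouse myoblasts whose cells fuse into myotubes once serum is reduced. Treated cells received interferon-gamma (IFN-γ) at 1 ng/ml through 3 days of differentiation, and control cells were differentiated for 3 days without the cytokine, both in horse serum given as 2% in one label and 10% in another. Each of 4 arrays carried treated RNA in Cy5 and control RNA in Cy3, from 8 µg of RNA, with no dye swap, so that in every ratio the effects of treatment and of dye cannot be told apart. The treated samples are labelled as biological replicates, but nothing in the labels tells if the control RNAs came from separate cultures, and p-values measure only the spread between these arrays, which may in part be technical.

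Matricellular proteins are secreted into the matrix without serving as its main scaffold. They bind integrins, collagens and growth factors and so modulate how cells attach, migrate and signal, and several of them are strongly made during muscle repair. Small leucine-rich proteoglycans coat collagen fibrils and control their assembly, and decorin and biglycan also bind transforming growth factor beta. Fibronectin is a fibril-forming adhesion protein of the early, provisional matrix.

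Values are log2 ratios of IFN-γ over control after background correction and loess normalisation within each array, with the SD over the 4 arrays. Across the tested probes array 2 stood apart: its ratios correlated with those of the other arrays at 0.539 to 0.656 (Pearson's r across probes), whereas the other pairs had 0.851 to 0.893. Median spot intensities were 149.5 to 264 for IFN-γ RNA and 79.75 to 97 for control RNA. The treatment was visible in Irf1, an interferon-induced transcription factor, with 2.74 ± 0.20 (a second probe had 0.29), and in the GTPase gene Gbp2 with 3.68 ± 0.40. All 12 skeletal muscle markers were tested, and in control cells each exceeded background clearly on all arrays. Of these, 5 fell, 1 rose (Myf5) and 6 did not pass the test given below. Over all genes 13.9% were called lower and 19.8% higher.

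In differentiating C2C12 cells with IFN-γ, the RNA of 5 of the 10 genes was higher, that of none was lower by its brightest probe, and 5 genes did not pass the test. Spp1 rose by far the most, 3.30-fold, followed by Postn at 1.66-fold, Thbs1 at 1.58-fold, Thbs2 at 1.49-fold and Lum at 1.26-fold. Sparc, Fn1, Dcn and Bgn did not pass, with means between -0.04 and 0.31. Tnc gave conflicting readings, since its dimmer probe fell 3.03-fold and its brighter probe did not pass. Brightness was ranked by the mean of both channels, so a fall with treatment lowers the rank. In control cells alone the dimmer Tnc probe had the higher mean log2 level, 9.07 against 8.74. Ranked in control cells, Tnc would have counted as lower. A probe was called at an adjusted p under 0.05 in limma's test of the mean ratio against 0, adjusted over all tested probes. By that rule 16.5% of all tested probes were called higher and 12.6% lower (29.1% in either direction), and with 1 probe a gene 19.8% higher and 13.9% lower (33.7% in either direction). Among the probes that, like all 12 here, were well above background in both channels on every array, 18.9% were called higher and 16.1% lower. The median of the 10 genes was 0.33, against 0.01 for all tested probes. On single arrays it was 0.61, 0.13, 0.47 and 0.19 for arrays 1 to 4. Because earlier results were known when the 10 genes were chosen, setting them beside all probes is not an independent comparison.

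**Figure D1:**
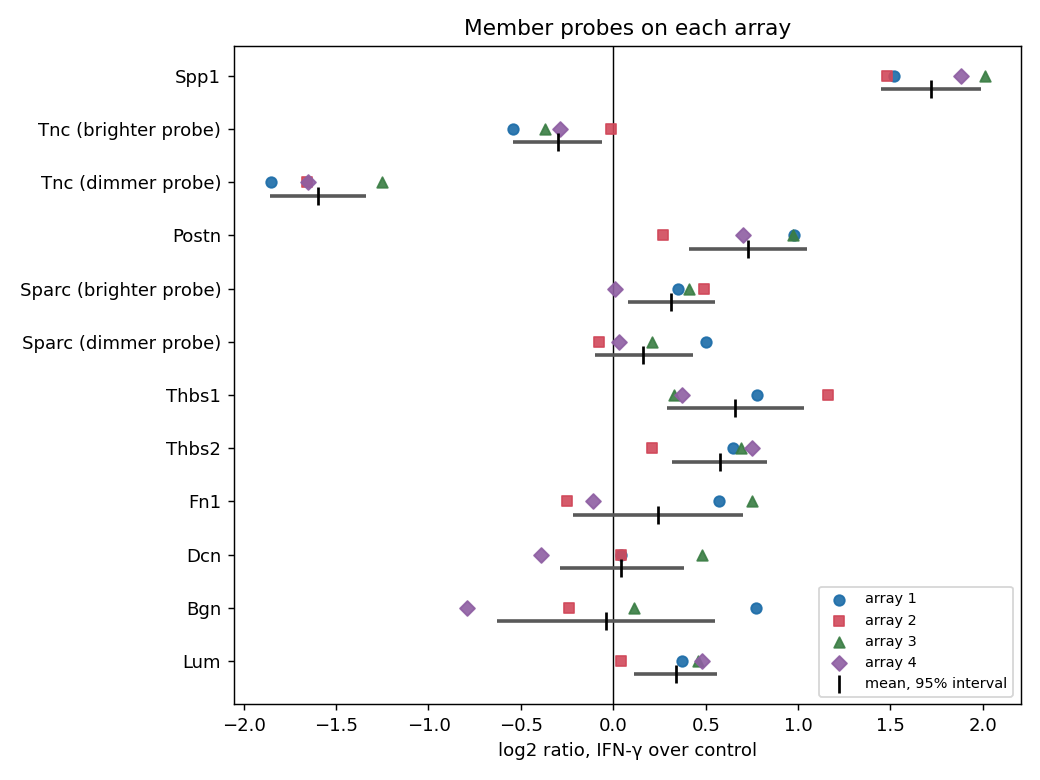
Log2 ratio of IFN-γ over control for the 12 probes (rows), with 1 symbol per array and, below each row of symbols, the mean and its 95% interval. Spp1 lies between 1.48 and 2.01 on all arrays, the dimmer Tnc probe between -1.85 and -1.25, and Fn1 and Bgn have arrays on both sides of 0.

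Most of the probes lay high in the brightness range of the array, which says nothing of RNA levels between genes but sets how much normalisation moved them. Their mean intensity was at the 37.5th percentile of tested probes for Lum, the 47.1 and 50.8 percentiles for the Tnc probes and the 66.9 percentile for Bgn, and between the 75.6 and 99.9 percentiles for the other 8. Before normalisation Cy5 was brighter than Cy3 on every array for all of them except the dimmer Tnc probe on arrays 1 and 2, and loess subtracted a mean of 1.30 (Lum) to 2.11 (Sparc and Fn1) from the log2 ratios. That subtraction exceeded the remaining ratio of every probe other than the dimmer Tnc probe, for which it was 1.60 against a ratio of -1.60. Before it, the dimmer Tnc probe had no common direction, with deposited Cy5 over Cy3 intensities of 0.791, 0.553, 1.99 and 1.08 on arrays 1 to 4. Its fall is therefore a fall relative to other probes of like brightness, and its size rests on the subtraction.

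Upstream sequences are shown for Spp1 and Tnc, the genes with the largest changes, and short stretches for Irf1 and Gbp2, the interferon-induced genes measured above. They come from RefSeq on build GRCm38.p6, and are written 5′ to 3′ on the gene's strand. Those of Spp1 and Tnc cover the 250 bases before an annotated transcript start. Capitals mark a match to GAS (TTCNNNGAA, the gamma-activated sequence) or to ISRE (GAAA, then NN, then GAAA, read by interferon regulatory factors), searched on both strands.
Spp1, chr5:104434861-104435110, + strand: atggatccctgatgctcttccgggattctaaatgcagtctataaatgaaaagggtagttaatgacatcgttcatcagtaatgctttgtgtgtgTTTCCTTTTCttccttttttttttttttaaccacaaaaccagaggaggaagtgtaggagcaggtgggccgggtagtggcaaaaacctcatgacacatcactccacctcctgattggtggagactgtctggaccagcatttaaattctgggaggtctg
Tnc, chr4:64047016-64047265, - strand: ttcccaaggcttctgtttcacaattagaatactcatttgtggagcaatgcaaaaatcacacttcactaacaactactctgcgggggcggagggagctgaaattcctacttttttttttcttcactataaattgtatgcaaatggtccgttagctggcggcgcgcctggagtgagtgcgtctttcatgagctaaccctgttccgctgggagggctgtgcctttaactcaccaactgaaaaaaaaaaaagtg
Irf1, chr11:53769909-53769947, + strand: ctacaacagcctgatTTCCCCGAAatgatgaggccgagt
Gbp2, chr3:142620589-142620628, + strand: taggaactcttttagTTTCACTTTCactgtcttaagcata

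Windows of 300 bases, from 250 before to 50 after a start, were found for 6 of the 10 genes: 2 each for Spp1, Tnc and Postn and 1 each for Sparc, Thbs2 and Bgn. Of these 9 windows, 0 held a GAS match and 1 an ISRE match, that of Spp1, which spans 157 to 148 bases before the start. Irf1 had a GAS match 90 to 82 bases before the start in 1 of its 2 windows. Gbp2 had an ISRE match 59 to 50 bases before its start, and no match overlapped another. Among all 32851 windows of this length 8.30% held a GAS match and 3.44% an ISRE match. A match is a string of letters and was not tested for binding.

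Spp1 encodes osteopontin, a secreted phosphoprotein that binds integrins and CD44 and acts on leukocytes as well as on bone and muscle cells. Its normalised intensities (log2) were 15.56, 15.30, 15.87 and 15.80 in IFN-γ cells on arrays 1 to 4, against 14.05, 13.82, 13.86 and 13.92 in control cells. The lowest treated value lay above the highest control value. The ratios were 1.52, 1.48, 2.01 and 1.88, with a mean of 1.72 ± 0.27 (SD, n = 4), a 95% interval of 1.45 to 1.99 and an adjusted p of 0.000562 (limma). The deposited spot intensities were 113108, 56800, 148759 and 125292 in Cy5, against 10819, 6909.5, 5417 and 7674 in Cy3, which includes the overall difference between the channels. Spp1 was called higher under all 13 alternative settings, with means of 1.62 to 2.75. At least 98.7% of tested probes had a lower ratio under each of them. Over the ratios of the 4 arrays, the genes closest to Spp1 by Euclidean distance among 15117 were Ifi35, an interferon-induced protein gene, at 0.41, Nod1, an intracellular sensor of bacterial cell walls, at 0.43, and Fbln7, a fibulin, at 0.46.

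Tnc encodes tenascin-C, a large hexameric protein that modulates adhesion to fibronectin and appears at sites of tissue repair. On its dimmer probe (A_52_P355169) the normalised log2 intensities were 7.58, 6.82, 7.80 and 7.68 in IFN-γ cells, against 9.43, 8.48, 9.04 and 9.33 in control cells. The groups did not overlap on this probe. The deposited spot intensities were 345, 101, 455 and 387 in Cy5, against 436, 182.5, 229 and 358 in Cy3, so before normalisation Cy5 was lower on arrays 1 and 2 only. After loess the ratios of the dimmer probe were -1.85, -1.66, -1.25 and -1.65, and the mean was -1.60 ± 0.25 (95% interval -1.86 to -1.34, adjusted p = 0.000668). It was called lower under each of the 12 alternative settings in which it was tested, with means of -2.24 to -1.06.

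The brighter Tnc probe (A_55_P2421597), annotated to the same transcript record, read otherwise. Its log2 intensities were 8.22, 8.25, 8.40 and 8.88 in IFN-γ cells, against 8.76, 8.26, 8.77 and 9.17 in control cells, and these ranges overlapped. The ratios were -0.54, -0.01, -0.37 and -0.29, all below 0, with a mean of -0.30 ± 0.22 (95% interval -0.54 to -0.06, adjusted p = 0.0650). This probe was called lower without array 2, at -0.40 (adjusted p = 0.00576), and had 0.35 under median centring, a setting described below. The dimmer minus the brighter probe gave -1.31, -1.65, -0.88 and -1.36 on the 4 arrays. An exact two-sided sign-flip test of that difference gave p = 0.125, the smallest that 4 arrays allow, and 0.375 adjusted over 6 such differences.

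Postn encodes periostin, which promotes collagen crosslinking and binds tenascin-C and integrins. Its log2 intensities were 13.29, 12.74, 13 and 13.05 in IFN-γ cells, against 12.31, 12.47, 12.04 and 12.35 in control cells. All treated values exceeded all control values. Postn rose by 0.73 ± 0.33 (95% interval 0.41 to 1.05, adjusted p = 0.0119), with 0.98, 0.27, 0.97 and 0.70 on arrays 1 to 4. The call was lost without array 3 (adjusted p = 0.0657) and without array 4 (0.0600), where the means were 0.65 and 0.74. The ratio of Spp1 exceeded that of Postn on 4 of 4 arrays, by a mean of 0.99 ± 0.31 (exact sign-flip p = 0.125).

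**Figure D2:**
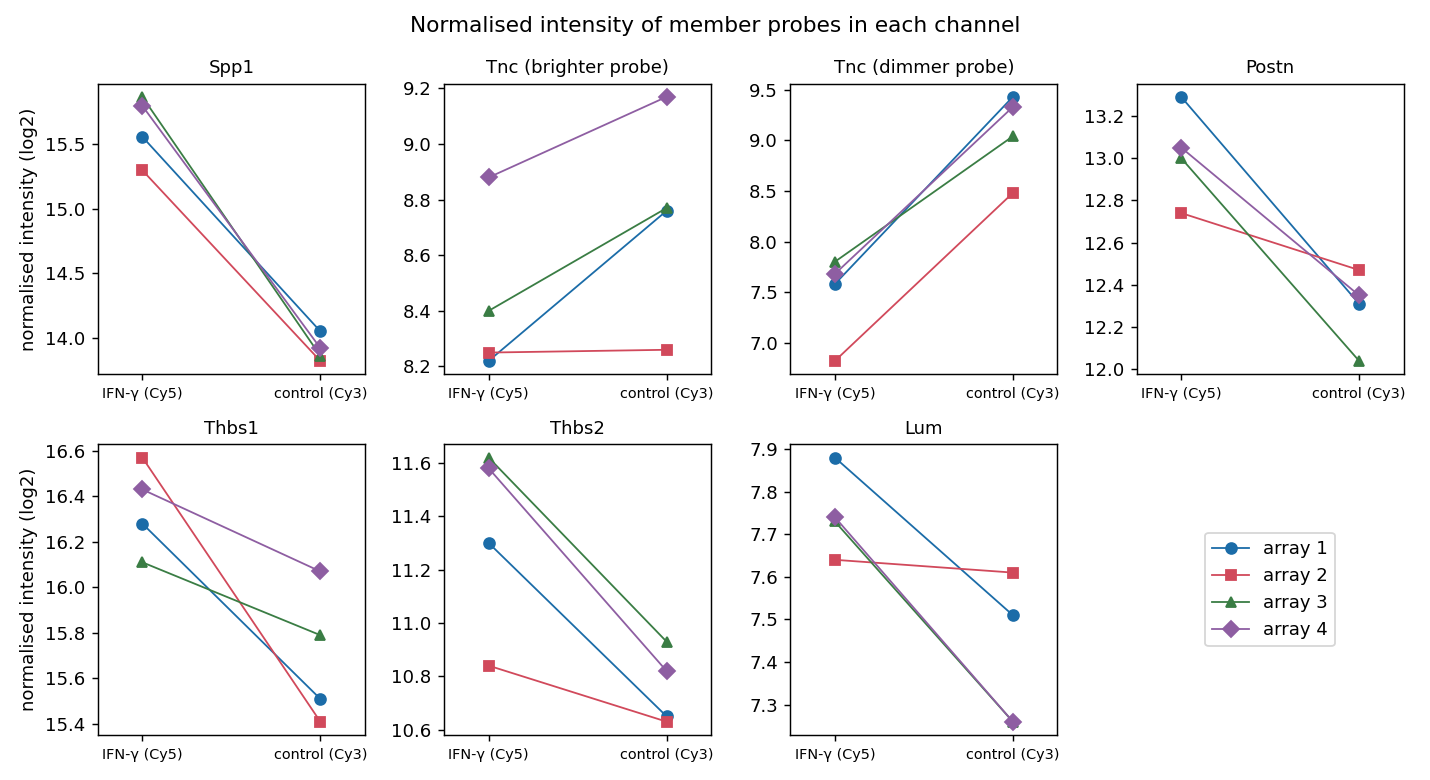
Normalised log2 intensity of the probes of called genes and of both Tnc probes on each array, IFN-γ (Cy5) at the left and control (Cy3) at the right, with lines joining the channels of 1 array. Lines of Spp1, Postn, Thbs1, Thbs2 and Lum go down to the right on all arrays, and those of both Tnc probes go up, nearly flat on array 2 for the brighter one.

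Thbs1 and Thbs2 encode thrombospondins, trimeric glycoproteins that restrain blood vessel growth. Thrombospondin 1 also activates latent transforming growth factor beta and binds CD47. Thbs1 had log2 intensities of 16.28, 16.57, 16.11 and 16.43 in IFN-γ cells, against 15.51, 15.41, 15.79 and 16.07 in control cells. Its groups did not overlap. It rose by 0.66 ± 0.39 (95% interval 0.29 to 1.03, adjusted p = 0.0241), with 0.78, 1.16, 0.33 and 0.37 on the 4 arrays, and was the called gene with the widest spread. Thbs2 had 11.30, 10.84, 11.62 and 11.58 in IFN-γ cells, against 10.65, 10.63, 10.93 and 10.82 in control cells, and the groups overlapped through array 2. It rose by 0.58 ± 0.25 (95% interval 0.32 to 0.83, adjusted p = 0.0121), with 0.65, 0.21, 0.69 and 0.75. Thbs1 had its highest ratio on array 2, where Thbs2 and Postn had their lowest. The paralogs' ratios differed by 0.09 ± 0.62, with Thbs1 higher on 2 arrays and lower on 2 (exact sign-flip p = 0.875).

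Both thrombospondin calls held without array 2, with 0.49 for Thbs1 (adjusted p = 0.00783) and 0.70 for Thbs2 (0.000437), but not without any of the others. Thbs1 lost its call without array 1, 3 or 4 (adjusted p = 0.0905, 0.0561 and 0.0599), and Thbs2 without the same arrays (0.0524, 0.0691 and 0.0644) and in the methods' t-test (0.0843).

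Sparc encodes a collagen-binding protein of growing and remodelling tissue. Its brighter probe (A_55_P2046812) had log2 intensities of 17.67, 17.81, 17.66 and 17.66 in IFN-γ cells, against 17.32, 17.31, 17.25 and 17.65 in control cells. The control on array 4 nearly reached the treated values, although the groups did not overlap. The ratios were 0.35, 0.49, 0.41 and 0.01, with a mean of 0.31 ± 0.21 (95% interval 0.08 to 0.55), and the adjusted p of 0.0537 did not pass. It passed without array 4 (0.42, adjusted p = 0.0413) and with 1 probe a gene (0.31, adjusted p = 0.0453). The dimmer probe (A_55_P2046807) had 0.16 ± 0.25 with an adjusted p of 0.291. The ratios of the pair differed by 0.15 ± 0.32 (exact sign-flip p = 0.5).

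Fn1 encodes fibronectin, which cells bind through integrins such as Itga5 with Itgb1. Its log2 intensities were 17.29, 17.04, 17.37 and 16.92 in IFN-γ cells, against 16.72, 17.30, 16.62 and 17.04 in control cells. The channels' ranges overlapped, and the gene was higher on arrays 1 and 3, by 0.57 and 0.75, and lower on arrays 2 and 4, with -0.25 and -0.11. Its mean of 0.24 ± 0.50 had a 95% interval of -0.22 to 0.70 (adjusted p = 0.381). That leaves room for a small fall and for a rise as large as the mean rises of Thbs1, Thbs2 and Lum.

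Of Dcn, Bgn and Lum, the small leucine-rich proteoglycan genes among the 10, Lum passed the test. Lumican binds collagen fibrils and limits their width. Its log2 intensities were 7.88, 7.64, 7.73 and 7.74 in IFN-γ cells, against 7.51, 7.61, 7.26 and 7.26 in control cells. The groups did not overlap, with array 2 separated by the least. Lum rose by 0.34 ± 0.21 (95% interval 0.11 to 0.56, adjusted p = 0.0409), with 0.37, 0.04, 0.46 and 0.48. That call was lost without array 1, 3 or 4 (adjusted p = 0.128, 0.165 and 0.158), in the methods' t-test (0.0604), and with Feature Extraction's ratios, where the mean was 0.55 with an adjusted p of 0.0566.

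Dcn, which encodes decorin, a binder of collagen, transforming growth factor beta and myostatin, had log2 intensities of 14.14, 13.97, 14.48 and 13.78 in IFN-γ cells, against 14.10, 13.93, 14.00 and 14.17 in control cells. Its ratios were 0.04, 0.04, 0.48 and -0.39, and the mean of 0.04 ± 0.35 had a 95% interval of -0.29 to 0.38 (adjusted p = 0.843). Bgn, which encodes the related biglycan, had 11.05, 9.21, 10.33 and 9.78 in IFN-γ cells, against 10.28, 9.45, 10.22 and 10.57 in control cells. Bgn varied most of the 12 probes, with ratios of 0.77, -0.24, 0.11 and -0.79 and a mean of -0.04 ± 0.65 (95% interval -0.63 to 0.55, adjusted p = 0.919). The ranges of the channels overlapped for both genes, and the intervals of both genes leave room for modest changes. Lum and Dcn are neighbours on chromosome 10, and their ratios differed by 0.30 ± 0.42 (exact sign-flip p = 0.5), while Bgn minus Dcn was -0.08 ± 0.54 (0.875).

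In the wider group of matricellular genes, 10 of 25 tested rose and 1 fell, 14 missed the threshold, and the median was 0.24. The reference for this and each later list is that 19.8% of all genes were called higher and 13.9% lower. Fbln1, which encodes a fibulin of elastic fibres and basement membranes, rose by 1.81 ± 0.76 (adjusted p = 0.00754), with 0.70 on array 2 and 2.02 to 2.39 on the others. Fbln7 rose by 1.68 ± 0.33 and Ccn3, a member of the CCN family of matrix signalling proteins, by 1.67 ± 0.09. Fbln1 thus had a mean above that of Spp1, and the other two lay just below it. Ccn4 had 0.01 ± 0.18. Thbs3, a further thrombospondin named after its values were seen, rose by 0.53 ± 0.06 (adjusted p = 0.00319).

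Among 16 further proteoglycan genes the median was 0.22, with 5 called higher, 1 called lower and 10 not called. Ogn (osteoglycin) rose by 1.12 ± 0.35, Aspn (asporin) by 0.86 ± 0.20 and Omd (osteomodulin) by 0.82 ± 0.18, all on 4 of 4 arrays. Their genes lie side by side on chromosome 13 in the order Ecm2, Aspn, Omd, Ogn, and Ecm2, named after its values were seen, rose by 0.60 ± 0.25. The chromosome 10 genes Kera, next to Lum, and Epyc, next to Kera, were not tested. Hspg2, which encodes perlecan, had 0.47 ± 0.36 (adjusted p = 0.0522), and its second probe passed with 0.83.

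Of 23 tested receptor genes for these proteins 6 rose, 4 fell and 13 were not called, with 19.8% of all genes called higher and 13.9% lower, and their median was 0.18. Tlr2, a pattern receptor reported to bind biglycan, rose by 0.91 ± 0.08 (adjusted p = 0.000759). Cd47, the thrombospondin receptor, rose by 0.59 ± 0.32, while its second probe had 0.46 and did not pass (adjusted p = 0.0693). Itgav, an integrin subunit that binds osteopontin, rose by 0.57 ± 0.41 (0.38 on a second probe), whereas Itgb5 had 0.18 ± 0.22.

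Among collagens and other partners, 7 of 16 rose and 2 fell, 7 were not called, and the median was 0.21. Col14a1, a collagen of fibril surfaces, rose by 1.44 ± 0.26 (0.50 on a second probe) and Fbn1, which encodes fibrillin, by 1.30 ± 0.20. Tgfb2, a growth factor of the family that decorin binds, fell by 1.47 ± 0.10 on the log2 scale (adjusted p = 0.000123), with -1.77 on a second probe. The family had no common direction. Tgfb1 rose by 0.62 ± 0.35 (adjusted p = 0.0222), and Tgfb3 had -0.21 ± 0.16 and did not pass, both named after their values were seen. Col1a2 had 0.23 ± 0.23.

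Of 24 enzymes that cut, crosslink or finish these proteins, 6 rose and 1 fell, 17 were not called, and the median was 0.10. Over all genes 19.8% were called higher and 13.9% lower. Tgm2, a transglutaminase that crosslinks fibronectin and osteopontin, rose by 1.18 ± 0.17. Plau (urokinase) was up by 1.11 ± 0.53 and Plat (tissue plasminogen activator) by 0.98 ± 0.10, both activating plasmin, and Bmp1, a proteinase that trims procollagens, had 0.05 ± 0.64 with -0.82 on a second probe.

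**Figure D3:**
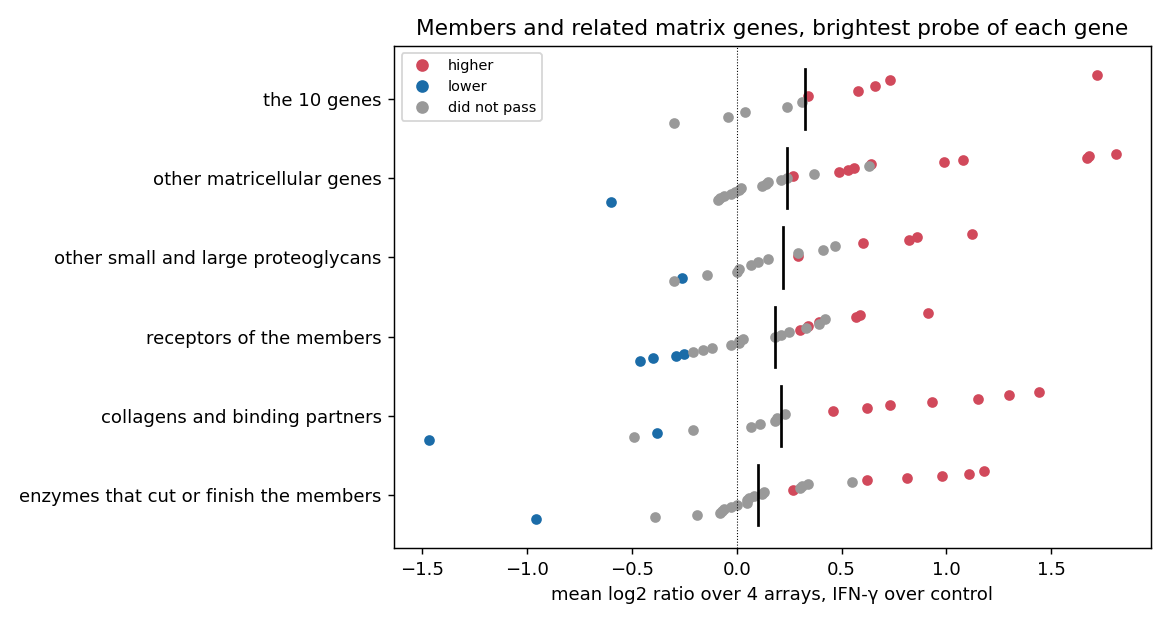
Mean log2 ratio over 4 arrays of the brightest probe of each gene, for the 10 genes and 5 related groups, coloured by call, with a vertical bar at each group's median. Medians lie between 0.10 and 0.33, and calls upward outnumber calls downward in each group, as they do over all genes (19.8% higher and 13.9% lower).

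Markers of another cell type moved with these results. Of 9 tested fibroblast markers outside the 10 genes, 6 rose and 1 fell, 2 were not called, and the median was 0.46. Col1a1, Col1a2 and Col14a1 were already counted, by the same probes, among the collagens and partners above. The summed normalised intensity of the list was 151340 to 187980 in IFN-γ cells, against 88583 to 129640 in control cells. Such sums are of unlogged values, so the brightest genes weigh most in them. Here those were Col1a1, Col1a2 and Ly6a, and Ly6a had mean log2 levels of 15.38 in IFN-γ cells and 13.26 in control cells. The sum thus reflects these genes more than the list as a whole. Ly6a, also known as an interferon-induced gene, rose by 2.12 ± 0.43 and Pi16 had -1.39 ± 0.35 and passed as lower, while Thy1 and Tcf21 did not pass the filter on dim probes. The muscle marker list summed to 335189 to 400515 in IFN-γ cells, against 429642 to 523695 in control cells. Its brightest genes, which weigh most in the sum, were Myh3 (-0.62 ± 0.06, called lower), Itga7 (-0.08 ± 0.06) and Acta1 (-0.36 ± 0.57). The last 2 did not pass. Des at -1.23 ± 0.26, Ckm at -1.12 ± 0.73, Mymk at -0.90 ± 0.42 and Tnnt3 at -0.63 ± 0.17 were also called lower. Myf5 was called higher, with 0.60 ± 0.15, and 6 markers in all did not pass. Myh3, Acta1, Tnnt3 and Myf5 were named after their values were seen. The part of either list in the results was not tested, and fewer cells of a type cannot be told apart from less RNA per cell.

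Macrophage markers showed no common direction, with 1 of 7 higher, 1 lower and 5 that did not pass. Adgre1 (-0.11 ± 0.05) and Ptprc (0.01 ± 0.10) were among the latter, and the markers Cd68, Lyz2 and Mrc1 were not tested. The lower call was Csf1r with -0.40 ± 0.04, while its other probes had -0.06 and 0.03 and did not pass. The macrophage list summed to 45025 to 71679 in IFN-γ cells, against 56682 to 79881 in control cells. Most of that sum was Itgam, with mean log2 levels of 15.86 in IFN-γ cells and 16 in control cells. Its ratio of -0.14 ± 0.35 did not pass. The next brightest of the list, Csf1r, had 9.58 and 9.98. Of osteoblast and chondrocyte markers, tested because osteopontin is a bone matrix protein, 1 of 6 rose (Phex, 1.18 ± 0.24), and Bglap, Alpl and Col2a1 were not tested. That list summed to 2678 to 4029 in IFN-γ cells, against 2779 to 3148 in control cells, and its brightest gene, Sox9 (-0.02 ± 0.42), weighed most in the sum. Endothelial markers had 1 of 4 lower (Kdr, -1.02 ± 0.28), with sums of 1791 to 2624 in IFN-γ cells, against 3267 to 4589 in control cells. Kdr made up most of those sums, with mean log2 levels of 10.59 in IFN-γ cells and 11.6 in control cells. Adipocyte markers had 0 of 1 called, Cidec with -0.08 ± 0.10 and an unadjusted p of 0.264 (limma).

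The size of the ratios depended on how the channels were centred. Subtracting each array's median in place of the loess curve put the median of all tested probes at 0.50. It called all 10 genes higher by their brightest probes, as were 16448 of all 28933 tested probes, while the dimmer Tnc probe was still called lower, at -1.06. Relative to that median, Spp1 stood at 2.25, Postn at 1.24, Thbs1 at 1.19, Thbs2 at 1.07, the brighter Sparc probe at 0.87, Fn1 at 0.79, Dcn at 0.56, Bgn at 0.39 and Lum at 0.08. The brighter Tnc probe lay 0.16 below it and the dimmer 1.56 below it. The order of the called genes from Spp1 to Thbs2 was the same as under loess, while Lum stood lower than Sparc, Fn1, Dcn and Bgn.

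**Figure D4:**
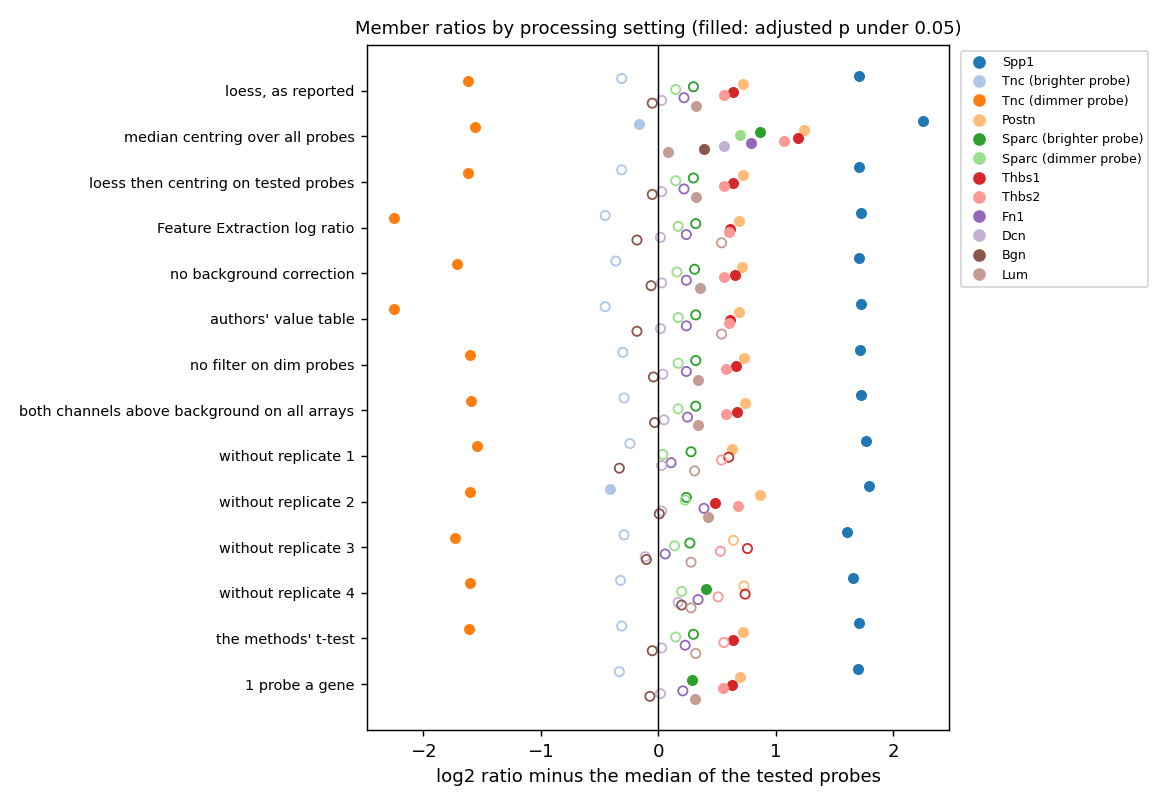
Log2 ratio of each of the 12 probes minus the median of all tested probes (horizontal axis) under loess, as reported, and 13 alternative settings (rows). Filled symbols had an adjusted p under 0.05 for a ratio different from 0, and those of Spp1 and the dimmer Tnc probe are filled in every row in which they were tested.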

How the data were processed

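Total RNA of C2C12 cells was hybridised to 4 arrays of 2 colours. The deposited scanner files hold spot and background intensities and a log10 ratio (Cy5 over Cy3) that, per the submitters' processing notes, came from Agilent Feature Extraction 10.7.3.1. The authors' deposited value table is in log2 units; its slope on the log10 ratios was 3.32 on each array, so it runs as Cy5 over Cy3, its medians were -0.125 to -0.105, and its centring is unknown.

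Medians were corrected by normexp (offset 50) and loess in limma 3.58.1 (R 4.3.3), with control spots and spots marked as outliers at weight 0; the latter were also left out of probe means. Accessions matched 1 RefSeq symbol for 26055 probes, several for 0 and none for 13374. A probe was tested if well above background in 1 channel on at least 3 arrays. Mean ratios were tested against 0 with lmFit and eBayes, with Benjamini-Hochberg adjustment over 28933 probes at 0.05. Levels are channel values after loess and Aquantile. For counts of genes, the tested probe brightest by the mean of both channels stood for its gene. Named genes are the 10 genes, and of each list up to 3 called genes with the largest change and the brightest that did not pass. The 10 genes and the lists were chosen with earlier results of these data known. No slide or scan batch existed, since 1 slide held all arrays. The fit was tested on simulated data. The methods' t-test, which the series' design text names, compared channel values unpaired with Benjamini-Hochberg adjustment. Alternatives are given in the closing section. The number of arrays limits precision. A further gene of the treatment check is not reported here.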

Additional observations from a re-analysis of the deposited data

How the results depend on the processing

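Under all 13 alternatives Spp1 kept its call, and so did the dimmer Tnc probe in the 12 that tested it. Median centring over all probes moved the counts to 16448 probes higher and 6358 lower and, by the brightest probe of each, 10 of the 10 genes higher. It gave 0.35 for the brighter Tnc probe and 0.89 for Bgn, both reversed and past the threshold, and 1.37 and 1.20 for the Sparc probes, 1.29 for Fn1 and 1.06 for Dcn, all newly past it. The list medians became 1.03 for other matricellular genes, 0.35 for other proteoglycans, 0.78 for receptors, 1.24 for collagens and partners and 1.04 for enzymes. This setting does not remove a trend of the ratio with brightness. With Feature Extraction's ratios and with the authors' value table Lum had 0.55 and did not pass, and the other proteoglycans had a median of 0.41; restricted to probes above background in both channels of every array it was 0.35. The methods' t-test called 2365 probes lower and 3 of the 10 genes higher, losing Thbs2 (0.58) and Lum (0.34), and called 3942 probes higher (409 higher and 241 lower at 2-fold or more, and 6211 and 4483 at an unadjusted p under 0.05). With 1 probe a gene 3111 were higher and 2173 lower, by construction fewer, and Sparc passed at 0.31. Leaving out 1 array gave 1913 to 6333 probes higher and 1151 to 5545 lower, 1 to 5 of the 10 genes higher and 0 to 1 lower; both probe counts were highest without array 2 and lowest without array 3. The ranges were 0.64 to 0.88 for Postn, 0.49 to 0.77 for Thbs1, 0.52 to 0.70 for Thbs2, 0.29 to 0.44 for Lum, 0.25 to 0.42 for the brighter Sparc probe, -0.40 to -0.22 for the brighter Tnc probe and 0.06 to 0.22 for the receptor median. Among genes that were not called, Fn1 had 0.07 (without array 3) to 0.40 (without array 2), Bgn -0.31 (without array 1) to 0.21 (without array 4), Dcn -0.10 (without array 3) to 0.19 (without array 4) and the dimmer Sparc probe 0.05 (without array 1) to 0.25 (without array 2), so that Bgn and Dcn changed sign. The medians were 0.15 (without array 1 or 3) to 0.31 (without array 2) for other matricellular genes and 0.09 (without array 1) to 0.16 (without array 2) for enzymes. Centring on the tested probes, no background correction and no filter on dim probes changed no call among the 12 probes. Where no construction is named, the cause was not tested. Lum and the Tnc probes lay nearest to background.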
